A study of Mus musculus with 71 samples.

Results

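The ventral tegmental area (VTA) of mice that had self-administered cocaine was compared with that of mice that had self-administered saline, 28 days into abstinence. The comparison rests on bulk RNA-seq, the sequencing of RNA from a whole tissue punch, and asks which genes still differ by drug history long after the last session. It comprised all 11 VTA libraries labelled with this time point, 6 cocaine and 5 saline, out of 71 in the series, and 16937 of the 37681 genes in their table had enough reads to be tested. The mice were adult, wild type animals of the C57BL/6 strain, and the groups differed by what they had infused themselves with. The other libraries of the series come from the nucleus accumbens (NAc), the prefrontal cortex (PFC) and an earlier time, 1 day of abstinence. In such punches fewer cells of a type and less RNA per cell cannot be told apart. Nothing in the labels ties a library to a single animal, so the p-values measure the spread between libraries.

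The VTA holds the dopamine neurons that project to the NAc and PFC, and cocaine acts on their axons by blocking the dopamine transporter, which returns released dopamine to the terminal. Local GABA neurons and incoming GABA axons restrain these cells through GABA-A and GABA-B receptors, while glutamate inputs excite them through AMPA and NMDA receptors. In rodents drug seeking persists and can intensify over weeks of withdrawal, and the VTA is among the regions whose synapses are known to be altered by cocaine.

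Each library held between 28356375 and 45056082 reads assigned to genes, and the 10 most abundant genes took 4.43 to 6.56% of them. The libraries were not alike in the tissue they held. Summed CPM (read counts scaled to library depth, with TMM normalisation) of 19 dopamine neuron markers lay between 3173 and 8773 CPM after cocaine and between 2151 and 9425 CPM after saline, so these markers were present in all 11 libraries at levels that varied within both groups. Th, the enzyme that makes the dopamine precursor L-DOPA, was at 782, 1313, 785, 282 and 287 CPM in saline libraries 1 to 5, and at 397, 741 and 1311 CPM in the lowest, middle and highest cocaine libraries. The cocaine range lay within the saline range, with a log2 fold change of 0.22 (SE 0.442, edgeR unadjusted p = 0.625). Slc6a3, the dopamine transporter, had a log2 fold change of 0.25 (SE 0.466, edgeR unadjusted p = 0.606).

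Markers of neighbouring regions differed between libraries and partly between groups. The Hox genes, which in the brain mark the hindbrain, summed to 0.725, 9.76, 6.46, 27.03 and 15.85 CPM in saline libraries 1 to 5 and to 0.431 to 5.64 CPM after cocaine, and 8 of the 9 tested were lower after cocaine at an unadjusted p under 0.05. This list was picked after the values had been seen. Serotonin neuron markers, of the raphe nuclei behind the VTA, summed to 39.5 to 548.1 CPM after saline and 21.5 to 315.5 CPM after cocaine. Their best known member Tph2, which makes serotonin's precursor, stood at 10.6, 89.2, 242, 262 and 170 CPM in saline libraries 1 to 5 and at 0.809, 17.8 and 142 CPM in the lowest, middle and highest cocaine libraries. The Tph2 groups overlapped, with a log2 fold change of -2.06 (SE 1.04, edgeR unadjusted p = 0.071). Markers of the hypothalamus, in front of the VTA, summed to 987.4 CPM in saline library 1, 605 CPM in cocaine library 2 and 318.5 CPM in cocaine library 1, against 17.8 to 156.6 CPM elsewhere.

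The same libraries lay at the ends of the first principal component, which held 45.2% of the variance: saline libraries 4 and 5 at 62.0 and 48.4, and saline 1, cocaine 2 and cocaine 1 at -41.4, -39.4 and -38.7. Where these markers and the groups move together, their parts in a result cannot be told apart. Many of the gene lists and single genes are therefore given also without saline libraries 4 and 5, whose Hox levels were the highest, and some without saline library 1.

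**Figure D1:**
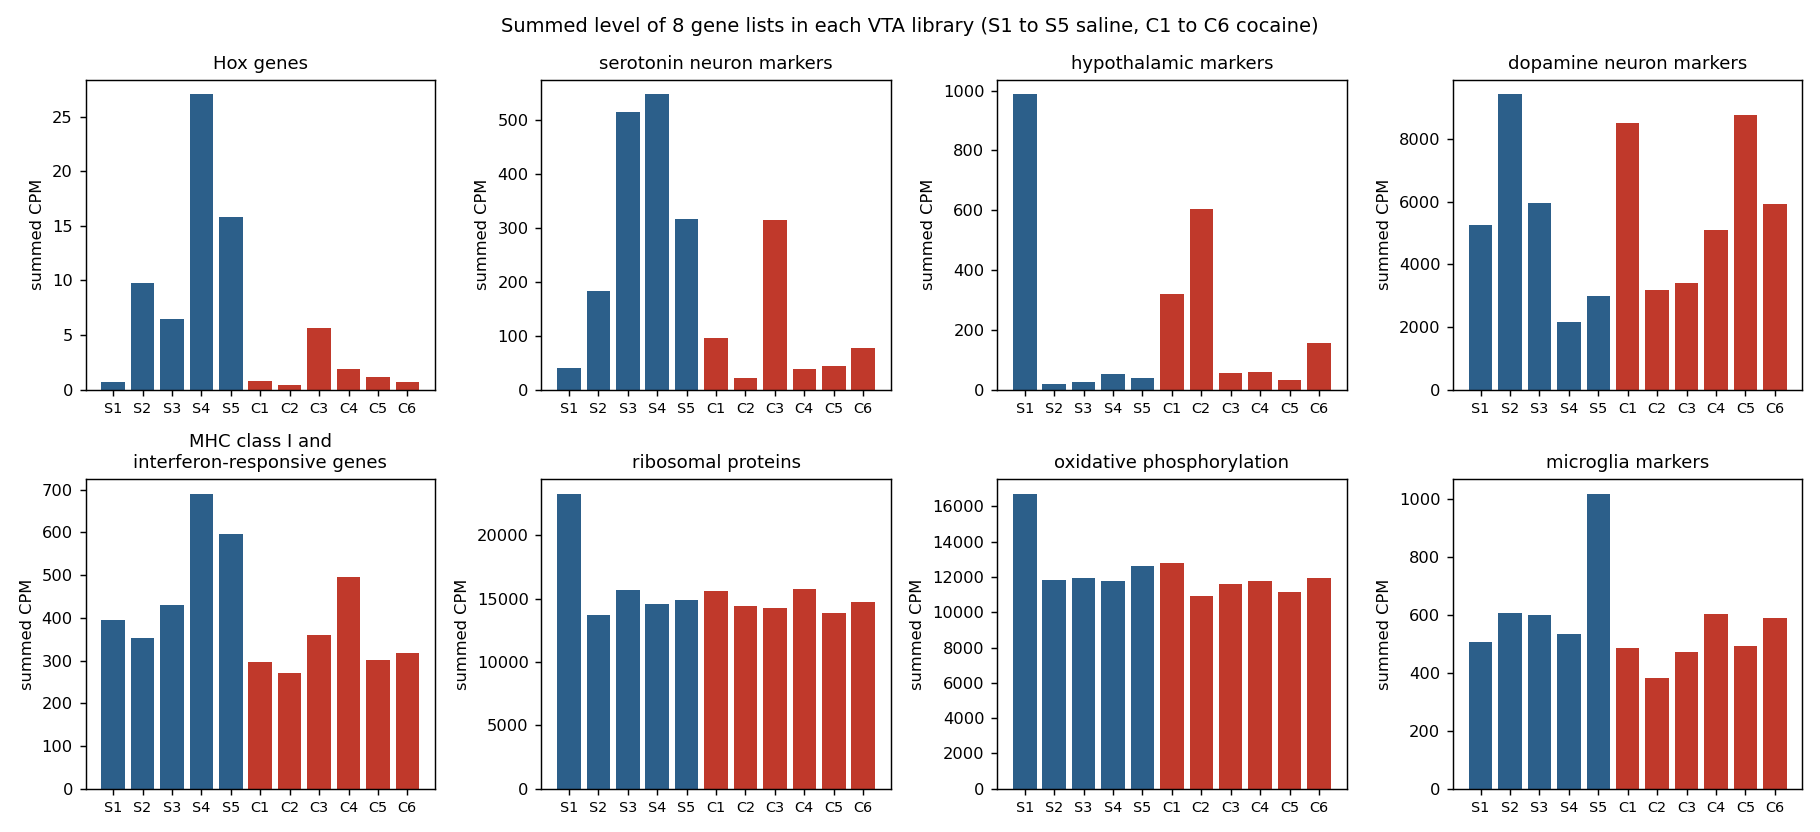
Summed level in CPM of 8 gene lists in each library (S1 to S5 saline, blue; C1 to C6 cocaine, red); each bar is 1 library and all axes start at 0. Saline libraries 4 and 5 have the highest Hox sums (27.03 and 15.85 CPM), and saline library 1 has the highest hypothalamic (987.4 CPM), ribosomal protein (23280 CPM) and oxidative phosphorylation (16710 CPM) sums.

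Across all genes, no difference passed the correction for multiple tests in edgeR's quasi-likelihood test (0 of 16937 genes, 0%; smallest Benjamini-Hochberg adjusted p = 0.389). At an unadjusted p under 0.05, 860 genes were higher after cocaine (5.08%) and 1082 were lower (6.39%), together 1942 where 847 would be called if the p-values were evenly spread. In 148 genes (0.874%) every cocaine library lay above every saline library, and in 67 (0.396%) every cocaine library lay below. DESeq2, with its own filter, called 73 of 19195 genes at an adjusted p under 0.05, 47 higher (0.245%) and 26 lower (0.135%). Of these, 71 were among the genes edgeR tested; the others were Hoxd4 (log2 fold change -5.19 by DESeq2) and the antisense transcript Hoxb3os (-4.82).

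The DESeq2 count hung on single libraries. Leaving out 1 library at a time gave from 2 calls (without cocaine library 2) to 1073 (without saline library 1), with 3 without saline library 5, 5 without cocaine library 5, 6 without cocaine library 6, 30 without saline library 3, 43 without saline library 4, 138 without cocaine library 4 and 219 without saline library 2. Without saline libraries 4 and 5 together it called 2 genes, of which 1 was among the 73. All 73 genes kept their direction in each of these fits, which reuse the libraries in which the 73 were called. limma-voom called 0 genes (993 higher and 1011 lower at an unadjusted p under 0.05), and a likelihood ratio test with robust dispersions in edgeR called 186. Every gene described below is given with its unadjusted p from edgeR's quasi-likelihood test unless another tool is named, and none of them passed edgeR's adjustment.

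The 12 leading genes among those higher after cocaine were a coactivator of CREB-driven transcription (Crtc1), receptors (Grid1, Prlr, Grpr, Gpr179), a calcium channel (Cacna1g), a sodium/proton exchanger (Slc9a5), regulators of protein turnover or Notch signalling (Usp29, Fbxo41, Dtx1), a sulfatase (Arsj) and Fam123c. Their log2 fold changes ran from 0.30 for Dtx1 to 1.06 for Grpr. They were named for having the smallest p-values in that direction among genes with a mean of at least 1 CPM, so their low p-values are a description. All 12 had cocaine libraries wholly above the saline libraries, all 12 kept an unadjusted p under 0.05 in each of the 11 fits that left out 1 library, and all 12 kept it without saline libraries 4 and 5 together and with serotonin, Hox or dopamine neuron marker levels as a covariate. All 12 were also called by DESeq2. These refits reuse the libraries in which the genes were picked. They show how far the values hang on single libraries and are no independent support.

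Crtc1 (mm9 chr8:72906254-72963478, minus strand), which carries calcium and cAMP signals to CREB target genes in neurons, was at 88.9, 92.3, 93.9, 98.0 and 83.4 CPM in saline libraries 1 to 5 and at 109.9, 114 and 131 CPM in the lowest, middle and highest cocaine libraries. The groups did not overlap, though the range within each was wider than the gap from 98.0 to 109.9 CPM between them. Its log2 fold change was 0.36 (SE 0.0657, edgeR unadjusted p = 0.000138; DESeq2 Benjamini-Hochberg adjusted p = 0.00774), and it stayed between 0.33 and 0.40 when any 1 library was left out.

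Grid1 (mm9 chr14:35633011-36396565, plus strand) encodes GluD1, a delta-type glutamate receptor that works as a synaptic organiser. It measured 58.1, 64.9, 60.8, 57.5 and 54.3 CPM in saline libraries 1 to 5 and 71.1, 75.0 and 89.8 CPM in the lowest, middle and highest cocaine libraries. All cocaine libraries were above all saline libraries, with a log2 fold change of 0.38 (SE 0.0741, edgeR unadjusted p = 0.000234; DESeq2 adjusted p = 0.0157).

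Cacna1g (mm9 chr11:94269705-94335414, minus strand) encodes a T-type calcium channel, which opens near rest and supports burst firing. Saline libraries 1 to 5 had 106, 106, 95.7, 117 and 74.5 CPM, and the lowest, middle and highest cocaine libraries 124, 138 and 153 CPM. Saline library 5 was lowest and the groups did not overlap, with a log2 fold change of 0.47 (SE 0.103, edgeR unadjusted p = 0.000655).

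Prlr, the prolactin receptor, was at 9.51, 12.9, 11.7, 7.85 and 9.01 CPM in saline libraries 1 to 5 against 13.5, 15.7 and 20.4 CPM in the lowest, middle and highest cocaine libraries, a log2 fold change of 0.72 (SE 0.152, edgeR unadjusted p = 0.000509). Its highest saline library, the second, came close to the lowest cocaine library. Usp29, an imprinted gene expressed from the paternal copy, had 36.8, 53.4, 50.1, 42.3 and 32.6 CPM in saline libraries 1 to 5 and 57.9, 64.2 and 79.0 CPM in the lowest, middle and highest cocaine libraries (log2 fold change 0.60, SE 0.131, edgeR unadjusted p = 0.000635). Grpr, the receptor for gastrin-releasing peptide, was low in every library. It was at 1.04, 0.718, 0.779, 0.507 and 0.779 CPM in saline libraries 1 to 5 and at 1.06, 1.65 and 2.13 CPM in the lowest, middle and highest cocaine libraries. The Grpr groups touched without overlapping, and the log2 fold change was 1.06 (SE 0.232, edgeR unadjusted p = 0.000648).

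The 12 leading genes among those lower after cocaine included an inhibitor of complement (Cd59a), an accessory protein of melanocortin receptors (Mrap2), the phospholipid-binding Anxa5, the homeodomain protein Hopx, the calcium-binding protein Pvalb of fast-spiking neurons, the silent potassium channel subunit Kcns1, the lipogenic Thrsp, the ETS factor Elk4 and the ribosomal protein Rpl22. Fez2, Lrrc51 and D17H6S56E-3 completed the 12. In 5 of them the groups did not overlap. All 12 kept an unadjusted p under 0.05 whichever library was left out and without saline libraries 4 and 5 together. With the Hox level as a covariate 11 kept it, and the exception was D17H6S56E-3, whose log2 fold change moved from -2.20 to -0.95 (edgeR unadjusted p = 0.0613). As above, these refits reuse the libraries in which the genes were picked and are no independent support.

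Cd59a (mm9 chr2:103935958-103955511, plus strand) had 19.4, 19.8, 22.9, 24.2 and 24.3 CPM in saline libraries 1 to 5 and 13.5, 15.4 and 18.6 CPM in the lowest, middle and highest cocaine libraries. The groups lay apart with little room between them, at a log2 fold change of -0.48 (SE 0.0999, edgeR unadjusted p = 0.000448; DESeq2 adjusted p = 0.0183). Mrap2 (mm9 chr9:87039140-87078880, plus strand) stood at 35.6, 39.7, 39.0, 54.2 and 43.5 CPM in saline libraries 1 to 5 and at 26.3, 27.9 and 34.1 CPM in the lowest, middle and highest cocaine libraries. Saline library 4 was the highest and the groups did not overlap (log2 fold change -0.53, SE 0.113, edgeR unadjusted p = 0.000566).

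Anxa5 measured 147, 129, 135, 159 and 150.1 CPM in saline libraries 1 to 5 and 99.5, 111 and 130 CPM in the lowest, middle and highest cocaine libraries, so that 1 saline library lay inside the cocaine range (log2 fold change -0.36, SE 0.0787, edgeR unadjusted p = 0.000607). Hopx was at 17.1, 23.3, 27.9, 27.4 and 33.5 CPM in saline libraries 1 to 5 against 12.2, 13.97 and 19.3 CPM in the lowest, middle and highest cocaine libraries, and saline library 1 overlapped the cocaine range (log2 fold change -0.77, SE 0.172, edgeR unadjusted p = 0.000781). Pvalb was at 68.0, 60.4, 41.9, 62.9 and 148 CPM in saline libraries 1 to 5 and at 28.5, 37.0 and 42.9 CPM in the lowest, middle and highest cocaine libraries. Saline library 5 stood far above the other libraries. Over all libraries its log2 fold change was -1.07 (SE 0.265, edgeR unadjusted p = 0.00161), and it was -0.64 (unadjusted p = 0.00235) without saline libraries 4 and 5.

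Further genes with the smallest DESeq2 p-values were Zfp831, a zinc finger gene higher after cocaine, and Sebox and Aox4, a homeobox gene and an aldehyde oxidase that were lower. Zfp831 was at 1.89, 0.969, 1.05, 0.966 and 0.584 CPM in saline libraries 1 to 5 and at 1.93, 2.55 and 3.16 CPM in the lowest, middle and highest cocaine libraries. Its first saline library reached almost to the lowest cocaine library, and the log2 fold change was 1.20 (SE 0.267, edgeR unadjusted p = 0.000712; DESeq2 adjusted p = 0.0157). Sebox had a log2 fold change of -1.45 (SE 0.281, edgeR unadjusted p = 0.000241; DESeq2 adjusted p = 0.0157) and Aox4 of -2.05 (SE 0.333, edgeR unadjusted p = 4.91e-05; DESeq2 adjusted p = 0.0157), and 1700040I03Rik of -0.42 (SE 0.0877, edgeR unadjusted p = 0.000453; DESeq2 adjusted p = 0.0157). Levels of Sebox and Aox4 were low, with means of 0.873 and 0.323 CPM over all libraries, under the 1 CPM asked of the leading genes.

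Gene lists of receptors, channels, adhesion molecules and cell type markers were then described by the number of members past an unadjusted p under 0.05 and by the median log2 fold change. Against these counts stand the 5.08% higher and 6.39% lower among all genes tested, and the median of all genes, -0.03. The lists and their members were chosen with earlier results of these data known, so a count above those shares is a description and no test. Of 48 lists, 7 had no member past that p.

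Receptors for GABA gave one of the larger counts. Of 16 GABA-A and GABA-B receptor genes tested, 9 were higher after cocaine and 0 lower, with a median log2 fold change of 0.29 and 15 above 0. Among them were Gabrg3, Gabbr2, Gabrb1, Gabra3, Gabbr1, Gabra5 and Gabrq, that is subunits of the chloride channel and both partners of the metabotropic GABA-B receptor. Gabrg3, a gamma subunit, was at 19.7, 17.4, 20.7, 15.5 and 14.5 CPM in saline libraries 1 to 5 and 22.2, 24.5 and 32.9 CPM in the lowest, middle and highest cocaine libraries. Its groups did not overlap (log2 fold change 0.54, SE 0.125, edgeR unadjusted p = 0.00104; DESeq2 adjusted p = 0.0266). Gabbr2, the GABA-B partner that couples to G proteins, had a log2 fold change of 0.33 (SE 0.11, edgeR unadjusted p = 0.0104), with overlapping groups. Leaving out saline libraries 4 and 5 left 4 of the 16 higher, with a median of 0.16, and leaving out 1 library gave 4 to 10.

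Glutamate receptors were higher in smaller numbers. Of 14 AMPA receptor and auxiliary subunit genes 3 were higher and 0 lower, of 14 NMDA and kainate receptor genes 2 and 0, and of 7 metabotropic receptor genes 2 and 0. Without saline libraries 4 and 5 the counts were 1 and 0, 2 and 0, and 2 and 0, and leaving out 1 library gave 2 to 6, 1 to 3 and 2 to 3 higher. Gria2, the subunit that makes AMPA receptors impermeable to calcium, was at 149, 207, 184, 173 and 137 CPM in saline libraries 1 to 5 and at 195, 221 and 290.001 CPM in the lowest, middle and highest cocaine libraries. Saline library 2 fell inside the cocaine range, and the log2 fold change was 0.42 (SE 0.128, edgeR unadjusted p = 0.00596). Gria1 (0.34, unadjusted p = 0.0111), Grin1 (0.23, unadjusted p = 0.019), Grm7 (0.54, unadjusted p = 0.00344) and Grm5 (0.30, unadjusted p = 0.0133) were among the others. Gria1 (0.22, unadjusted p = 0.0765) and Grin1 (0.20, unadjusted p = 0.0856) did not keep their p without saline libraries 4 and 5. In the scaffold that holds such receptors in place, 5 of 14 genes were higher and 0 lower (4 and 0 without saline libraries 4 and 5, and 2 to 6 higher when 1 library was left out), among them the 3 Shank genes Shank1 (0.24, unadjusted p = 0.01), Shank2 (0.21, unadjusted p = 0.0316) and Shank3 (0.30, unadjusted p = 0.0128).

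Channel genes went both ways. Of 25 voltage-gated sodium and calcium channel genes 6 were higher and 2 lower, with a median of 0.26, and without saline libraries 4 and 5 the counts were 7 and 0. Leaving out 1 library gave 4 to 13 higher. Besides Cacna1g, Scn2a1, which encodes a sodium channel of axons, was at 183, 229, 212, 176 and 113 CPM in saline libraries 1 to 5 and at 231, 243 and 301 CPM in the lowest, middle and highest cocaine libraries. Its groups were separated by a narrow margin (log2 fold change 0.47, SE 0.152, edgeR unadjusted p = 0.00888). Scn4b (-0.81, unadjusted p = 0.0183), an auxiliary sodium channel subunit, was among the lower ones. Of 31 potassium channel genes 9 were higher and 3 lower (6 and 1 without saline libraries 4 and 5, and 5 to 10 higher when 1 library was left out). Kcna3, a delayed rectifier, was at 5.86, 10.7, 10.5, 9.28 and 6.34 CPM in saline libraries 1 to 5 and at 11.1, 13.8 and 14.7 CPM in the lowest, middle and highest cocaine libraries, with no overlap (0.65, SE 0.165, unadjusted p = 0.00187). The 3 lower ones were Kcns1 (-0.97, unadjusted p = 0.00114), Kcng4 (-0.84, unadjusted p = 0.0203) and Kcna1 (-0.55, unadjusted p = 0.0367).

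Genes that guide axons and join neurons were more often higher than lower. Of 16 Slit, Robo and netrin guidance genes 4 were higher and 0 lower (5 and 0 without saline libraries 4 and 5). Slit1, a secreted repellent, was at 87.1, 95.2, 95.02, 84.7 and 55.9 CPM in saline libraries 1 to 5 and at 111, 126 and 149.9 CPM in the lowest, middle and highest cocaine libraries, and the groups did not overlap (log2 fold change 0.61, SE 0.134, edgeR unadjusted p = 0.000671; DESeq2 adjusted p = 0.0208). Robo3, a receptor of the family that binds Slits, was at 1.61, 1.83, 1.16, 1.81 and 0.751 CPM in saline libraries 1 to 5 and at 1.48, 3.25 and 4.47 CPM in the lowest, middle and highest cocaine libraries. One cocaine library lay inside its saline range (1.15, SE 0.293, unadjusted p = 0.00205).

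Of 30 semaphorin, neuropilin and plexin genes 7 were higher and 2 lower, the latter Sema3e (-1.38, unadjusted p = 0.00277) and Sema7a (-0.36, unadjusted p = 0.0263), and without saline libraries 4 and 5 the counts were 7 and 0, with Sema3e at -0.68 (unadjusted p = 0.0533). Plexins, the receptors of semaphorins, supplied Plxna3 (0.47, unadjusted p = 0.00346), Plxna1 (0.41, unadjusted p = 0.00442) and Plxna4 (0.24, unadjusted p = 0.0153). Of 16 classical cadherins 4 were higher and 0 lower (3 and 0 without saline libraries 4 and 5, and 3 to 7 higher when 1 library was left out). Cdh6 was at 3.94, 4.95, 4.43, 6.14 and 5.12 CPM in saline libraries 1 to 5 and at 6.53, 7.98 and 12.4 CPM in the lowest, middle and highest cocaine libraries, without overlap (log2 fold change 0.78, SE 0.175, edgeR unadjusted p = 0.000814). Protocadherins, surface proteins that give neurons an identity, had 7 higher and 0 lower of 36, with 35 of the 36 above 0 and a median of 0.18, 3 and 0 without saline libraries 4 and 5, and 3 to 11 higher when 1 library was left out. Ephrins and Eph receptors were mixed, with 4 higher and 2 lower of 22 (3 and 0 without saline libraries 4 and 5).

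**Figure D2:**
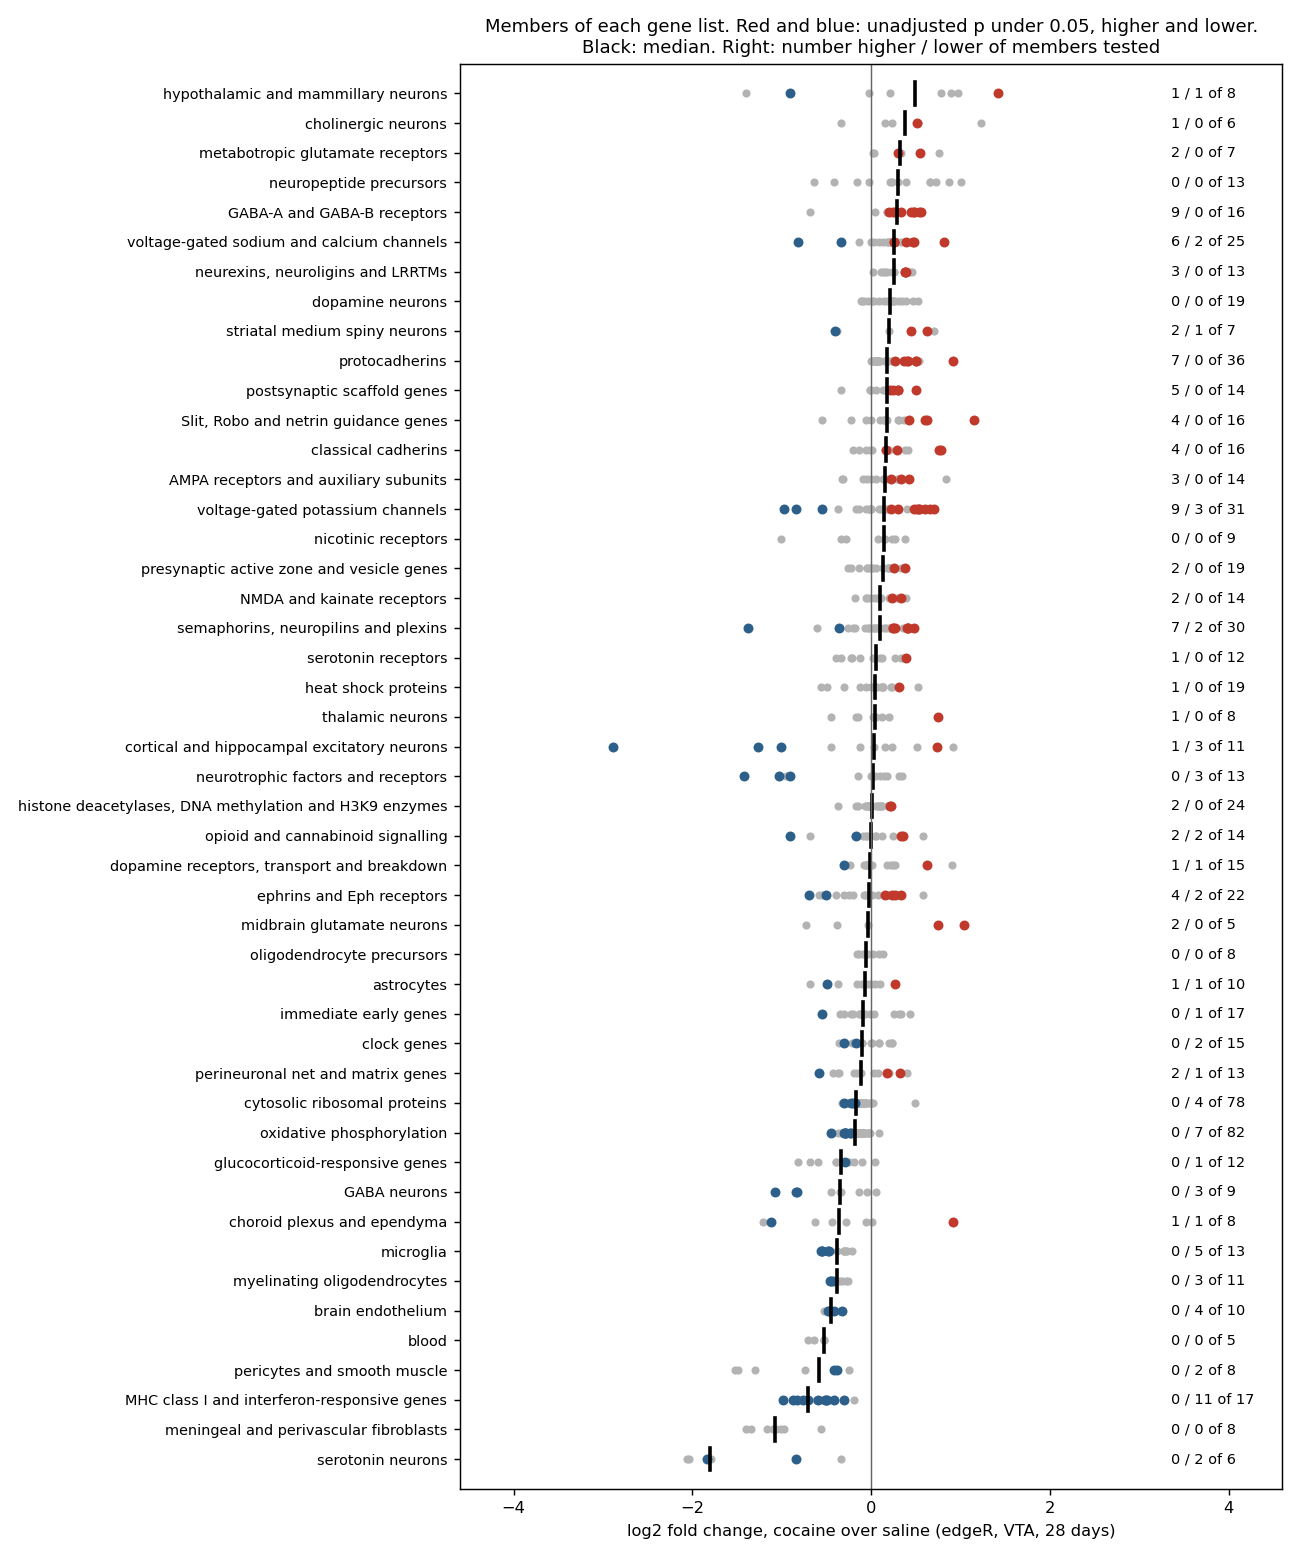
Log2 fold change of cocaine over saline (horizontal axis) of every tested member of each gene list, 1 point per gene, red or blue where the unadjusted p was under 0.05, with the list median as a black bar and the counts higher and lower at the right. Many receptor, channel and adhesion lists lie mostly to the right of 0 (9 of 16 GABA receptor genes red). The dopamine receptor, ephrin and opioid lists have medians of -0.02, -0.02 and -0.004. Vessel, microglia, myelinating oligodendrocyte and interferon-responsive lists lie to the left (11 of 17 in the last blue), while the astrocyte and oligodendrocyte precursor medians are -0.07 and -0.06.

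Class I major histocompatibility (MHC) genes, which display peptides to T cells and are also made by neurons, and interferon-responsive genes were lower as a group. Of 17 tested, 11 were lower after cocaine and 0 higher, with a median log2 fold change of -0.70 and all 17 below 0. B2m, the light chain of every class I molecule, was at 77.6, 77.9, 96.0, 139 and 137 CPM in saline libraries 1 to 5 and at 55.0, 66.7 and 100.2 CPM in the lowest, middle and highest cocaine libraries. Saline libraries 4 and 5 were the only ones of that group above the whole cocaine range (-0.60, SE 0.195, edgeR unadjusted p = 0.00993). H2-K1, a class I heavy chain, had 53.4, 46.1, 59.3, 112 and 104 CPM in saline libraries 1 to 5 against 33.9, 38.9 and 77.0 CPM in the lowest, middle and highest cocaine libraries (-0.70, SE 0.28, unadjusted p = 0.0271). Ifit3, an antiviral gene induced by interferon, was at 19.0, 20.5, 25.1, 32.7 and 30.6 CPM in saline libraries 1 to 5 and at 11.1, 12.8 and 27.6 CPM in the lowest, middle and highest cocaine libraries (-0.77, SE 0.243, unadjusted p = 0.00834). In both of these genes the groups overlapped. Without saline libraries 4 and 5, 0 of the 17 passed the unadjusted p in either direction and the median was -0.20, and with the Hox level as a covariate it was again 0, with a median of -0.18. Leaving out saline library 4 alone or saline library 5 alone left 3 of 17 lower, and leaving out cocaine library 4 gave 17.

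Interferon acts on such genes through a promoter element, the interferon-stimulated response element, whose core (GAAA, any 2 bases, GAAA) was searched on both strands in the 250 bases before each gene's start (RefSeq promoters, build GRCm38.p6, while expression positions above are mm9). It was found in 978 of 32851 promoters, or 2.98%. Of the 11 lower genes 9 had a promoter entry, and 3 of these held the core. They are printed because they are the members of the list that were lower and held the core, from 30 bases before the first match to 30 after the last, read 5′ to 3′ on the plus strand with the matches in capitals (TTTC at their start where the core lies on the other strand).
Ifit3, chr19:34583343-34583446: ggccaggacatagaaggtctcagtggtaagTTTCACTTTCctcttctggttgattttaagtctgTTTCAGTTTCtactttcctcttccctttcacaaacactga
B2m, chr2:122147518-122147587: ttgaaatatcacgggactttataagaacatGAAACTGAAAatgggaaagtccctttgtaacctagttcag
Ifit1, chr19:34640755-34640843: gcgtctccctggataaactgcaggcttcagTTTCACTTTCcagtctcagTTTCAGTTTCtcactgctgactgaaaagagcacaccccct
The 2 matches of Ifit3 began 156 and 122 bases before its start, the match of B2m 139 bases and the 2 matches of Ifit1 104 and 85 bases. A match of letters is a description of these windows, not a measured binding site.

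Markers of the cells around neurons were lower or showed no common direction. Of 13 microglia markers 5 were lower and 0 higher (median -0.38), of 10 brain endothelium markers 4 and 0 (-0.45), of 11 myelinating oligodendrocyte markers 3 and 0 (-0.39), and of 8 pericyte and smooth muscle markers 2 and 0 (-0.58). The complement genes C1qa (-0.55, edgeR unadjusted p = 0.0139) and C1qb (-0.56, unadjusted p = 0.0224) were among the microglia markers that were lower. Their summed level was 382 to 604.5 CPM after cocaine and 506.4 to 1019 CPM after saline, the last in saline library 5. Without saline libraries 4 and 5, 0 of the microglia markers passed the unadjusted p, and 1 each of the endothelium, myelinating oligodendrocyte and pericyte markers was lower. Leaving out 1 library gave 1 to 9 lower microglia markers and 3 to 6 lower endothelium markers. For the myelinating oligodendrocyte markers the count was 0 without saline library 2, 3 or 5 or cocaine library 2, 5 or 6, and 10 without saline library 1 or saline library 4. Astrocyte markers (1 higher and 1 lower of 10) and oligodendrocyte precursor markers (0 of 8) showed no common direction. All 8 fibroblast markers were below 0, with a median of -1.08, none passed the unadjusted p, and their summed level ran from 63.1 to 650.1 CPM within the cocaine group alone.

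Among markers of neurons, dopamine neuron genes did not separate the groups (0 of 19 past the unadjusted p, median 0.21), and of 15 genes for dopamine receptors, transport and breakdown 1 was higher and 1 lower. The higher one was Drd1a, the D1 receptor, at 2.39, 1.97, 2.49, 2.42 and 2.92 CPM in saline libraries 1 to 5 and at 2.59, 4.07 and 4.34 CPM in the lowest, middle and highest cocaine libraries. Its level was low throughout and the groups overlapped (log2 fold change 0.63, SE 0.159, edgeR unadjusted p = 0.00198; DESeq2 adjusted p = 0.0452). Of 9 GABA neuron markers 3 were lower and 0 higher, namely Pvalb, Gata2 (-0.83, unadjusted p = 0.0203) and Gata3 (-0.84, unadjusted p = 0.0355). Gata2 (-0.40, unadjusted p = 0.229) and Gata3 (-0.70, unadjusted p = 0.131) lost their p without saline libraries 4 and 5, and Gata3 is also in the serotonin neuron list. Slc17a6, the glutamate transporter of midbrain and thalamic glutamate neurons, was higher (0.74, unadjusted p = 0.0156), whereas Slc17a7, the transporter used by cortical and many hindbrain neurons, was lower (-2.89, SE 0.906, unadjusted p = 0.00779). Neither kept that p without saline libraries 4 and 5 (Slc17a6 0.65, unadjusted p = 0.0608; Slc17a7 -1.73, unadjusted p = 0.0905), and with the Hox level as a covariate Slc17a7 was at -0.11 (unadjusted p = 0.578). The lists that hold these 2 genes had no common direction. Of 5 midbrain glutamate neuron markers 2 were higher and 0 lower, with 3 below 0 (median -0.03). Of 8 thalamic markers 1 was higher and 0 lower (median 0.04). Of 11 cortical and hippocampal excitatory neuron markers 1 was higher and 3 lower, with 6 above 0 (median 0.03).

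Some neurotrophic ligands were among the genes lower after cocaine, at low levels. Of 13 neurotrophic factor and receptor genes 3 were lower and 0 higher, while 8 were above 0 and the median was 0.02. Among the lower ones were the ligands Nrtn (log2 fold change -1.04, SE 0.267, edgeR unadjusted p = 0.00218; DESeq2 adjusted p = 0.0479) and Gdnf (-0.91, SE 0.274, unadjusted p = 0.00601). Mean levels were 1.34 ± 0.387 CPM after cocaine and 2.74 ± 0.913 CPM after saline for Nrtn and 0.268 ± 0.0741 and 0.508 ± 0.15 CPM for Gdnf (SD, n = 6 and 5). Nrtn kept its unadjusted p without saline libraries 4 and 5 (-0.79, unadjusted p = 0.0254), and Gdnf (-0.68, unadjusted p = 0.0666) did not.

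Of 14 opioid and cannabinoid signalling genes 2 were higher and 2 lower, with 7 above and 7 below 0 (2 and 0 without saline libraries 4 and 5). Dagla, which makes the endocannabinoid 2-AG, had a log2 fold change of 0.36 (edgeR unadjusted p = 0.00412) and Cnr1, the CB1 receptor on presynaptic terminals, 0.33 (SE 0.11, unadjusted p = 0.0113), while Faah, which breaks down anandamide (-0.17, unadjusted p = 0.0403), and Pomc, the precursor of beta-endorphin (-0.90, unadjusted p = 0.0275), were lower. Camk2a, a kinase of synaptic plasticity, was at 212, 126, 164, 204 and 103 CPM in saline libraries 1 to 5 and at 202, 264 and 395 CPM in the lowest, middle and highest cocaine libraries, overlapping between groups (0.74, SE 0.216, unadjusted p = 0.00511).

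Lists of genes that respond within hours to neuronal activity or hormones had 1 or 2 members past the unadjusted p. Among all genes tested 6.39% were lower at that p, so these small lists were not short of such genes. Of 17 immediate early genes 1 was lower and 0 higher, of 15 clock genes 2 and 0, and of 12 glucocorticoid-responsive genes 1 and 0. In the last list 11 of 12 were below 0, with a median log2 fold change of -0.33. Without saline library 1, 7 of the 12 were lower (median -0.47), and without saline libraries 4 and 5 the count was 1 lower (median 0.05). Nr4a1, an immediate early gene, was at 14.6, 9.16, 14.4, 20.5 and 15.7 CPM in saline libraries 1 to 5 and at 9.84, 14.2 and 17.4 CPM in the lowest, middle and highest cocaine libraries, with full overlap (log2 fold change -0.09, SE 0.202, edgeR unadjusted p = 0.672). Its sign turned to 0.15 without saline libraries 4 and 5. Cartpt, the peptide precursor named for its regulation by cocaine and amphetamine, ran from 2.06 to 46.3 CPM after cocaine and from 0.723 to 23.1 CPM after saline (0.87, SE 0.929, unadjusted p = 0.365). Per2, a clock gene, had a log2 fold change of 0.08 (SE 0.147, unadjusted p = 0.583). Histone deacetylases, DNA methyltransferases and H3K9 enzymes, the chromatin regulators most studied in addiction, had 2 higher and 0 lower of 24 (Dnmt1 0.22, unadjusted p = 0.0108; Hdac11 0.21, unadjusted p = 0.0393), and Hdac11 lost its p without saline libraries 4 and 5 (0.08, unadjusted p = 0.295).

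Oxidative phosphorylation and ribosomal protein genes lay mostly below 0 by small amounts, with few past the unadjusted p. Of 82 oxidative phosphorylation genes 81 were below 0 with a median of -0.18 and 7 passed the unadjusted p, and of 78 cytosolic ribosomal protein genes 76 were below 0 with a median of -0.17 and 4 passed. Among all genes tested 6.39% were lower at that p, near the share in both lists. Saline library 1 held the highest sums, 16710 CPM of oxidative phosphorylation and 23280 CPM of ribosomal protein genes, where every other library lay between 10930 and 12780 CPM and between 13750 and 15770 CPM. Without that library the medians were -0.03 and 0.00. Without saline libraries 4 and 5 they were -0.25 and -0.25, and with the Hox level as a covariate 73 of 82 and 74 of 78 were lower at the unadjusted p.

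Genes were also split by the length they span on the genome. In 5 groups of equal size, with median spans of 2.22, 9.13, 20.3, 42.7 and 125 kb, the share higher after cocaine at an unadjusted p under 0.05 was 2.39, 3.28, 4.26, 5.82 and 9.63%, and the share lower was 6.53, 9.07, 7.18, 5.44 and 3.75%. The median log2 fold change went from -0.08 in the shortest to 0.03 in the longest genes. Without saline library 1 the medians were 0.02 and -0.0013, the share lower was greatest in the longest genes (15.4%), and the share higher was 7.54, 10.4, 9.81, 10.9 and 11.1% from the shortest to the longest. Without saline libraries 4 and 5 the order was as in the full set, with medians of -0.11 and 0.07. The 12 leading genes of each direction, picked for low p-values in all 11 libraries, kept their unadjusted p without saline library 1.

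**Figure D3:**
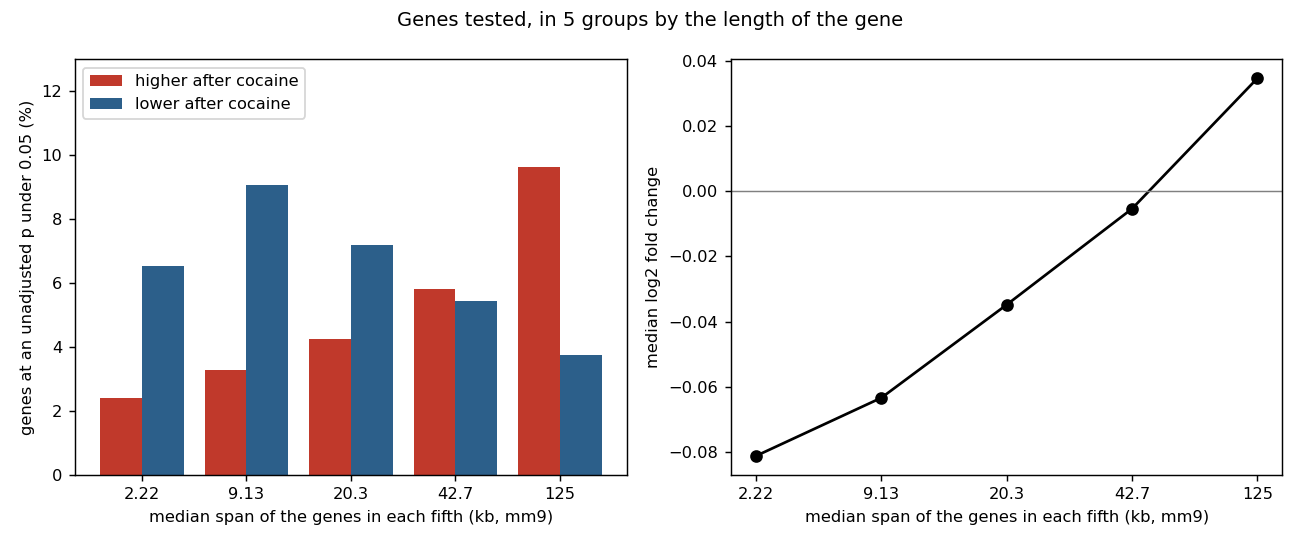
Genes tested, in 5 groups of equal size by genomic span (horizontal axes, median span in kb). Left: the percent of genes at an unadjusted p under 0.05, higher (red) or lower (blue) after cocaine; right: the median log2 fold change, which goes from -0.08 to 0.03 with all 11 libraries.

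The cocaine difference in the VTA was set against that in the NAc and PFC at the same 28 days by fitting the regions together and testing whether the difference itself differed. The fit took all libraries as independent. Libraries of different regions may come from the same mice, which the labels do not say, so its SEs and p-values leave any such pairing out. For the NAc, 0 of 17406 genes passed edgeR's adjustment (0%) and 1197 (6.88%) had an unadjusted p under 0.05, while DESeq2 called 14 of 8857 genes, all with a higher value in the VTA. For the PFC, 0 of 17456 genes passed (0%) and 1731 (9.92%) had an unadjusted p under 0.05, while DESeq2 called 36 of 17903, 28 with a higher and 8 with a lower value in the VTA. How far these calls hang on single libraries was not tested. Within the NAc 3.34% of genes were higher and 3.42% lower at an unadjusted p under 0.05, and within the PFC 2.69% and 2.97%.

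Crtc1 came nearest to differing between VTA and NAc in edgeR's test. Its log2 fold change was 0.36 in the VTA and -0.09 in the NAc, a difference of 0.47 (SE 0.0779, edgeR Benjamini-Hochberg adjusted p = 0.0575), and in the PFC it was -0.05, a difference of 0.42 (SE 0.0974, adjusted p = 0.287). Grid1 led the comparison with the PFC, with -0.11 there and a difference of 0.50 (SE 0.0962, adjusted p = 0.272). Robo3, higher in the VTA, had a log2 fold change of -1.004 in the NAc, a difference of 2.19 (SE 0.417, adjusted p = 0.136). In the opposite direction Anxa5 was lower in the VTA and had 0.08 in the NAc, a difference of -0.41 (SE 0.0987, adjusted p = 0.395). Zfp831 had 0.05 in the NAc and 0.02 in the PFC, differences of 1.19 (SE 0.23, adjusted p = 0.136) and 1.20 (SE 0.241, adjusted p = 0.272). Other genes with the smallest p-values were Aox4 (difference from the NAc -1.80, adjusted p = 0.457) and Upb1 (-1.08, adjusted p = 0.457) for the NAc, and Ppp1r13b (difference from the PFC 0.33), Elk4 (-0.47), Tmsb4x (-0.43) and Ostf1 (-0.45) for the PFC, the last 4 with an adjusted p of 0.272. Against the NAc, DESeq2 called Crtc1 (DESeq2 adjusted p = 1.35e-05) and Zfp831 (1.58e-05), but not Robo3, Anxa5, Aox4 or Upb1. Against the PFC, it called Crtc1 (DESeq2 adjusted p = 0.0329), Grid1 (0.00224), Zfp831 (0.000716), Ppp1r13b, Elk4, Tmsb4x and Ostf1. For the GABA receptor genes the median was 0.16 in the NAc (2 higher and 0 lower of 16) and 0.05 in the PFC (1 and 0 of 15). The MHC class I and interferon-responsive genes had 0 higher and 6 lower of 17 in the NAc (median -0.24) and 0 and 1 of 17 in the PFC (median -0.10). Of the 17, 2 differed between VTA and NAc and 3 between VTA and PFC at an unadjusted p under 0.05.

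At 1 day of abstinence the VTA was measured in other mice, and those values were deposited as RPKM (reads scaled to gene length and library depth), so they are given side by side and the difference between times was not tested. There, limma on log2(RPKM + 0.1) put 1678 of 15042 genes higher (11.2%) and 688 lower (4.57%) at an unadjusted p under 0.05. Of the 12 leading higher genes at 28 days 10 were measured at 1 day, 6 were above 0 and 1 passed the unadjusted p, Cacna1g (log2 fold change 0.32, unadjusted p = 0.00994). Of the 12 lower genes all 12 were measured, 5 were below 0 and 0 passed in that direction. Crtc1 had 0.12 (SE 0.0995, unadjusted p = 0.255) at 1 day, and Cd59a, lower at 28 days, had 0.30 (SE 0.114, unadjusted p = 0.0194). Camk2a was among the genes past limma's Benjamini-Hochberg adjustment at 1 day (0.59, SE 0.0855, adjusted p = 0.0266), the same direction as at 28 days. The MHC class I and interferon-responsive genes had a median of 0.26 at 1 day, with 2 higher and 0 lower of 15, against -0.70 at 28 days.

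**Figure D4:**
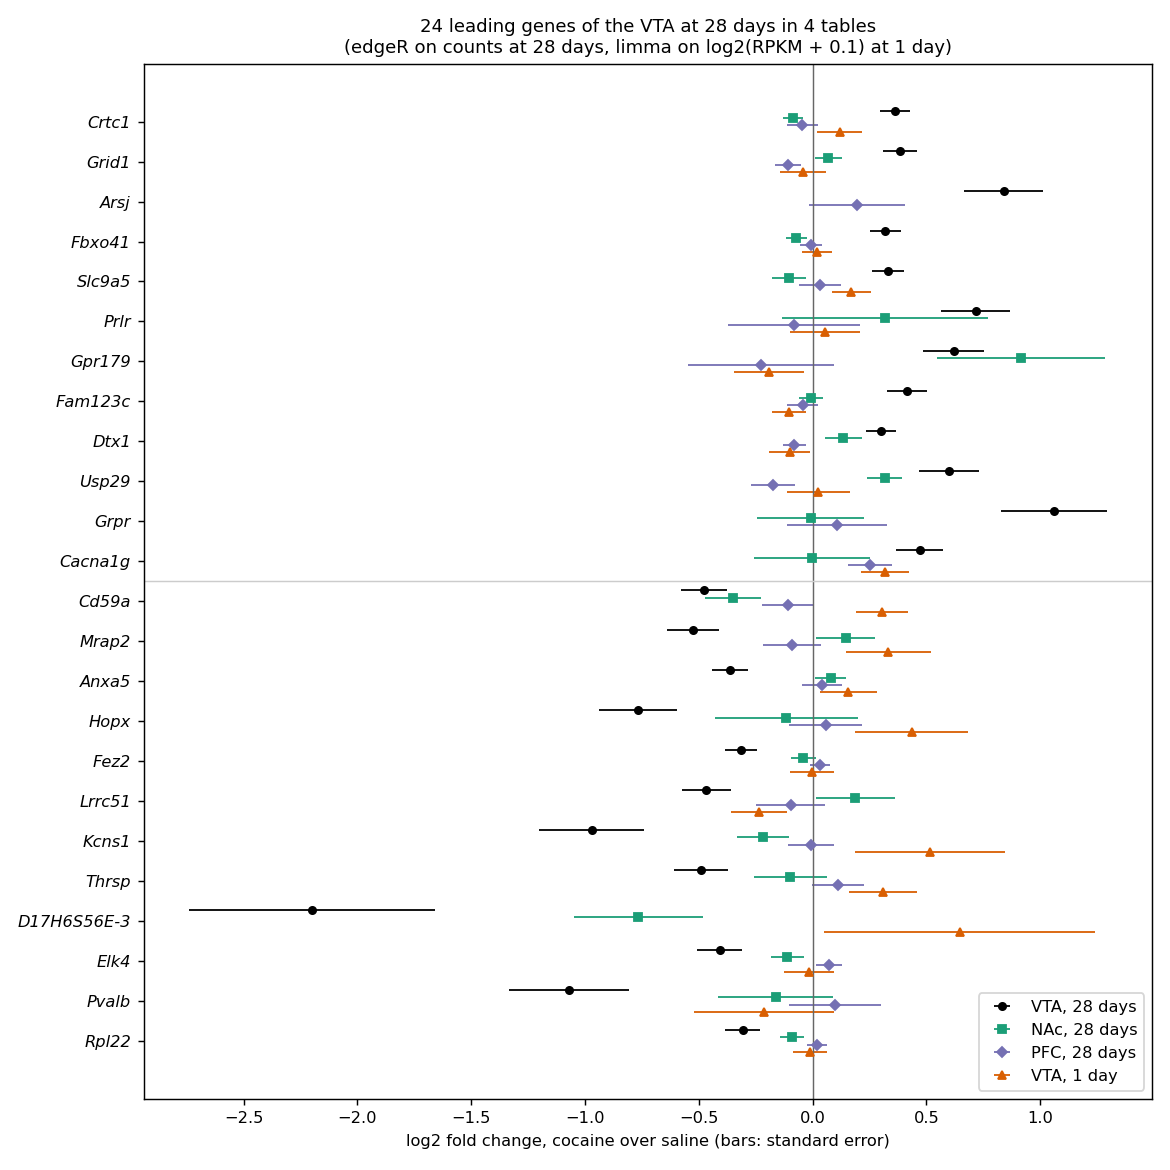
Log2 fold change of cocaine over saline (horizontal axis, bars are standard errors) of the 24 leading VTA genes at 28 days in the VTA (black), NAc (green) and PFC (purple) at 28 days and in the VTA at 1 day (orange). The genes were chosen for their small p-values in the black points, which therefore lie away from 0. Most points of the other 3 colours lie nearer to 0, which this choice alone would give. Crtc1 was at -0.09 in the NAc.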

How the data were processed

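RNA-seq counts and RPKM of VTA, NAc and PFC tissue punches were analysed. The authors deposited, for each region at 28 days, raw read counts per gene, and for the VTA at 1 day, RPKM values. Per the labels' processing notes, reads were aligned with STAR 2.4.1d to mm9; the counter and strand setting are not given in the sources used here, so overlapping and antisense genes may share reads. Columns that hold the study's own statistics for each drug contrast (a fold change on the log2 scale with its p-value) were left unused, as were 24 columns of no sample of the series. Columns of the 28-day tables name the group and not the individual sample. Depth was 28356375 to 45056082 reads per VTA library.

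Genes with enough reads were kept with filterByExpr (minimum count 10, minimum total 15), normalised with TMM and tested with edgeR's quasi-likelihood test (edgeR 4.0.16, R 4.3.3), without covariates, with Benjamini-Hochberg adjustment at 0.05. The SE of a log2 fold change was taken from the F statistic. Differences between regions were interaction terms. RPKM were tested with limma 3.58.1 on log2(RPKM + 0.1) for genes with a mean of at least 0.5, a scale that understates the change of low genes. DESeq2 1.42.0, limma-voom, other filters, scalings and left-out libraries were alternatives. The scripts were checked on simulated data. Named genes were the 12 with the smallest p in each direction with a mean of at least 1 CPM and no predicted or clone name, members of each list with the smallest p (at most 4) or the highest level (2), Nr4a1, Cartpt, Per2 and Cbl, the 3 with the smallest p in each direction of each region comparison, and the 5 with the smallest DESeq2 p in each direction; other list members with a p under 0.05 were named after their values were seen. The members and lists were chosen with earlier results of these data known. Gene positions came from GENCODE vM1 (16917 of 16937 genes matched). No libraries were identical: the chi-square per degree of freedom between replicates was 14.9 to 154.1. The common biological coefficient of variation was 22.4%. Figures were drawn with Python 3.11.15 and matplotlib 3.10.9. Some genes counted in the lists are not reported here by name.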

Additional observations from a re-analysis of the deposited data

Results flagged for a closer look

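Among 108 groups of values examined, 14 had a highest or lowest library set far apart from the rest of its group. About 1 in 20 groups of independent, normally distributed values would show this by chance. The groups examined share libraries and some genes, so that rate need not hold for them. Of the 14, 8 were in saline libraries 1 and 5, beside results of the comparison. Saline library 5 had the lowest level of Slit1 (55.9 CPM) and Gpr179 (4.34 CPM) and the highest level of Pvalb (148 CPM) and of the microglia markers (summed 1019 CPM). The direction of those 3 genes was the same without saline libraries 4 and 5.

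Saline library 1 had the highest summed levels of hypothalamic markers (987.4 CPM), ribosomal protein genes (23280 CPM) and oxidative phosphorylation genes (16710 CPM) of its group, and the lowest level of Cbl (10.4 CPM), a ubiquitin ligase that was at 39.8 to 48.0 CPM in the other saline libraries. Cbl was also set apart in cocaine library 1 (31.0 CPM), and its log2 fold change was 0.19 (SE 0.299, edgeR unadjusted p = 0.541). Cocaine library 3 had the highest Tph2 (142 CPM), serotonin neuron sum (315.5 CPM) and Hox sum (5.64 CPM) of the cocaine group. Cocaine library 4 had the highest Ifit3 (27.6 CPM), and cocaine library 2 the highest Cartpt (46.3 CPM).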

How the results depend on the processing

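In the VTA at 28 days no gene passed edgeR's quasi-likelihood test after adjustment under any filter, scaling, left-out library or covariate tried, with a smallest adjusted p of 0.389 over all 11 libraries, 0.0966 without saline library 1 and 0.119 with the Hox covariate. DESeq2 called 73 genes, DESeq2 over the genes that pass edgeR's filter 83, DESeq2 without saline libraries 4 and 5 called 2 (654 lower at an unadjusted p under 0.05), and the likelihood ratio test with robust dispersions 186. When 1 library was left out, genes higher at an unadjusted p under 0.05 numbered 547 (without cocaine library 2) to 1691 (without saline library 1), and genes lower 534 (without saline library 5) to 2041 (without saline library 1). The lower count was 571 without cocaine library 2, 719 without cocaine library 6 and 598 without saline libraries 4 and 5. With serotonin neuron markers as a covariate the counts were 507 and 703, and with Hox genes 1434 and 2187. The fits without saline libraries 4 and 5, with covariates and with DESeq2 over edgeR's genes were chosen after seeing the data. For the difference between VTA and NAc, DESeq2 called 14 genes and an adjusted p under 0.25 gave 12; between VTA and PFC, DESeq2 called 36. Of the named genes, 2 passed at 1 day and 0 without the RPKM filter. Signs turned for Flt1 with the Hox covariate (0.00477), Cbl (-0.0451 without saline library 1, up to 0.288 without saline library 3), Per2 (-0.0164 without saline library 1, up to 0.232 without saline library 5) and Nr4a1 (-0.210 without saline library 2, 0.0658 without saline library 4, 0.146 and by DESeq2 0.150 without saline libraries 4 and 5, 0.0363, 0.0365 and 0.0384 with serotonin, Hox and dopamine covariates). The other named genes followed through these fits kept their direction, with 124 values past an adjusted p that the quasi-likelihood test did not give. Genes named only for their level, such as Th, Slc6a3 and Tph2, or after their values were seen were not followed. Of the list medians 745 moved by less than the spread between libraries and 39 by more. The causes were not tested. No paired analysis was possible because the 28-day columns carry no replicate number of the labels. At this depth and with 6 and 5 libraries, a gene that did not pass the adjustment may still differ. The smallest difference that could be detected is not given here.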
